A study of Mus musculus with 6 samples.

Results

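The endoplasmic reticulum (ER) stress and folding genes were followed in endothelial progenitor cell (EPC) cultures of mice that had inhaled concentrated ambient fine particulate matter (CAP) and of mice that had inhaled filtered air. The group holds 33 genes, chosen by symbol and matched to the Ensembl identifiers of the count table (gene positions are on GRCm38), out of 21965 genes in that table. All 33 had a row and all 33 passed the filter on low counts, among 14792 genes tested. By role they were 4 stress sensors and transducers, 11 chaperones and co-chaperones, 5 genes of disulfide formation, 7 genes of ER-associated degradation, 2 subunits of the translocon and 4 genes of stress output. No member passed the test of CAP against air after adjustment for all genes tested, and only 2 members, Chac1 and Derl3, had an estimated difference beyond 1.5-fold.

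Proteins that are secreted or sit in membranes enter the ER through the translocon, are folded there by chaperones and by enzymes that form disulfide bonds, and are sent back to the cytosol for degradation when folding fails. When unfolded protein accumulates, 3 membrane sensors, encoded by Atf6, Ern1 and Eif2ak3, raise transcription of the folding and degradation genes and slow translation, which is known as the unfolded protein response. The branch of Eif2ak3 acts through the transcription factor ATF4 on Ddit3, Chac1, Ppp1r15a and genes of amino acid supply, and because other kinases feed into ATF4 as well, these genes also answer to stresses outside the ER. Cells that secrete much protein, such as plasma cells, fibroblasts and osteoblasts, keep the folding genes high without stress.

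Male C57BL/6 mice (C57BL/6J in the methods text), obtained at 11 weeks of age, were exposed for 6 h per day over 30 days, 3 mice to CAP at a mean of 67 µg/m3 and 3 mice to air passed through a particle filter. EPCs were grown from the bone marrow of each mouse for 12 days by the sample labels (10 days by the methods text), and each mouse gave 1 mRNA library. No gene was altered in either group. Each group was housed in 1 cage, and effects of the cage and of the particles cannot be told apart.

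Depth was even, with 28713206 to 30446171 counts per library, and the counts were divided by size factors of the relative log expression (RLE) method to give normalized counts. CAP replicate 2 stood apart from the other 5 libraries. It held the highest value of the 6 libraries in 29.8% of all tested genes and the lowest in 33.6%. Among the members it was the highest in 10 and the lowest in 4, while air replicate 3 was the lowest in 12. The 8 endothelial markers summed to 2755 to 3419 normalized counts in CAP cultures, against 2861 to 4734 in air cultures, and none was at 0 in all libraries. Eng was the most abundant of them and overlapped between the groups, while the CAP values of Cdh5, Pecam1 and Tek all lay below the air values, with unadjusted edgeR p of 0.0263, 0.0331 and 0.00915 and an adjusted p of 0.468 in each. Tek was near the floor, with 0, 0 and 2.99 normalized counts in CAP replicates 1 to 3, against 4.06, 24.2 and 87.4 in air replicates 1 to 3. Air 3 was the highest library in all 3 genes, at 956 for Cdh5 and 702 for Pecam1. Air replicates 1 and 2 held 211 and 239 for Cdh5 and 177 and 219 for Pecam1. With a library left out in turn, log2 fold changes ran -2.07 to -0.66 for Cdh5 and -1.96 to -0.74 for Pecam1. Kdr and Eng had log2 fold changes of 0.53 and 0.17. The 8 macrophage markers summed to 418277 to 470629 in CAP cultures, against 523191 to 568491 in air cultures. Of the 8 macrophage markers 7 had a negative log2 fold change, and of the 8 endothelial markers 6. Macrophage transcripts were thus abundant in cells labelled as endothelial progenitors. Of the 8 macrophage markers, 2 (Itgam and Lyz2) had every CAP library below every air library. Their unadjusted edgeR p was 0.0391 and 0.0980, and their adjusted p 0.468 and 0.497. Every CAP sum of the macrophage markers lay below every air sum, but this rested on Lyz2, and without it the sums overlapped, at 129643 to 173436 in CAP cultures, against 162641 to 191085 in air cultures. The part of these cells in the values of the members was not tested. In bulk RNA of this kind, fewer cells of a type and less RNA per cell cannot be told apart.

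The promoters of the members were searched for the letters of 4 known stress elements. The ER stress response element (ERSE) is CCAAT, 9 bases of any kind, then CCACG, and is known to be bound by NF-Y with ATF6 or XBP1. Its second form (ERSE-II) is ATTGG, 1 base, then CCACG. The unfolded protein response element (UPRE) was searched as TGACGTGG, and the element for ATF4 with C/EBP (CARE) as TGATGNAA. Both strands were searched from 250 bases before to 50 bases after the RefSeq start sites (GRCm38.p6), and the table held such promoters for 28 of the 33 members. Atf6, Hyou1, Manf, Derl1 and Sec61a1 had no entry.

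ERSE was found in 10 of these 28 members (35.7%) and in 0.119% of 32851 promoters of all genes, ERSE-II in 2 members (7.14%) and in 0.0365% of all promoters, CARE in 3 members (10.7%) and in 3.97% of all promoters, and UPRE in 0 members and in 0.676% of all promoters. ERSE and ERSE-II share the half-site CCACG, but no match of one overlapped a match of another in these promoters. The stretches shown are those of the usual ER stress reporters and of the members with the lowest p that held a match. Nupr1 was added so that every CARE match is shown. They are written 5′ to 3′ on the strand of the gene with the match in capitals and GRCm38 positions of the whole stretch.
Hspa5 ERSE (chr2:34772005-34772063, + strand): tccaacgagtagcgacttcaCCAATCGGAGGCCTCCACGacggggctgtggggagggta
Hsp90b1 ERSE (chr10:86705618-86705676, - strand): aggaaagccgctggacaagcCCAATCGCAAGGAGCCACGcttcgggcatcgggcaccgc
Hsp90b1 ERSE (chr10:86705513-86705571, - strand): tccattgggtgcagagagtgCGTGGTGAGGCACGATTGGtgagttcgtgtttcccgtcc
Calr ERSE (chr8:84847055-84847113, - strand): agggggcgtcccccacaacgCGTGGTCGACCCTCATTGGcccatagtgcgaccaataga
Creld2 ERSE (chr15:88819500-88819558, + strand): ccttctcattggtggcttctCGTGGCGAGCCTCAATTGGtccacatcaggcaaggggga
Pdia6 ERSE (chr12:17266471-17266529, + strand): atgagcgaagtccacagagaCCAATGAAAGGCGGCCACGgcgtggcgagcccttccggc
Derl3 ERSE (chr10:75893222-75893280, + strand): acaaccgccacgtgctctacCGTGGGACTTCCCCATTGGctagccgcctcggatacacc
Herpud1 ERSE-II (chr8:94386357-94386407, + strand): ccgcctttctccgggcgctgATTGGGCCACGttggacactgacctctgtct
Herpud1 CARE (chr8:94386297-94386344, + strand): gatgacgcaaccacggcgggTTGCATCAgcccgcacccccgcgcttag
Chac1 CARE (chr2:119351029-119351076, + strand): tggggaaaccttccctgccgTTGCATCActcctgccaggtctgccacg
Nupr1 CARE (chr7:126625553-126625600, - strand): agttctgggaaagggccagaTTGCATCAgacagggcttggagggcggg
The ERSE of Hspa5 starts 65 bases before the start site, Hsp90b1 holds a pair of them on opposite strands, and the CARE matches of Herpud1, Chac1 and Nupr1 share the same 8 letters on the reverse strand. Further ERSE matches lay in Canx, Dnajc3, Ero1lb and Syvn1, and the other ERSE-II match in Dnajb11. A match is a description of letters and not a bound site, and a promoter without a match lacks only these letters in this window.

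**Figure D1:**
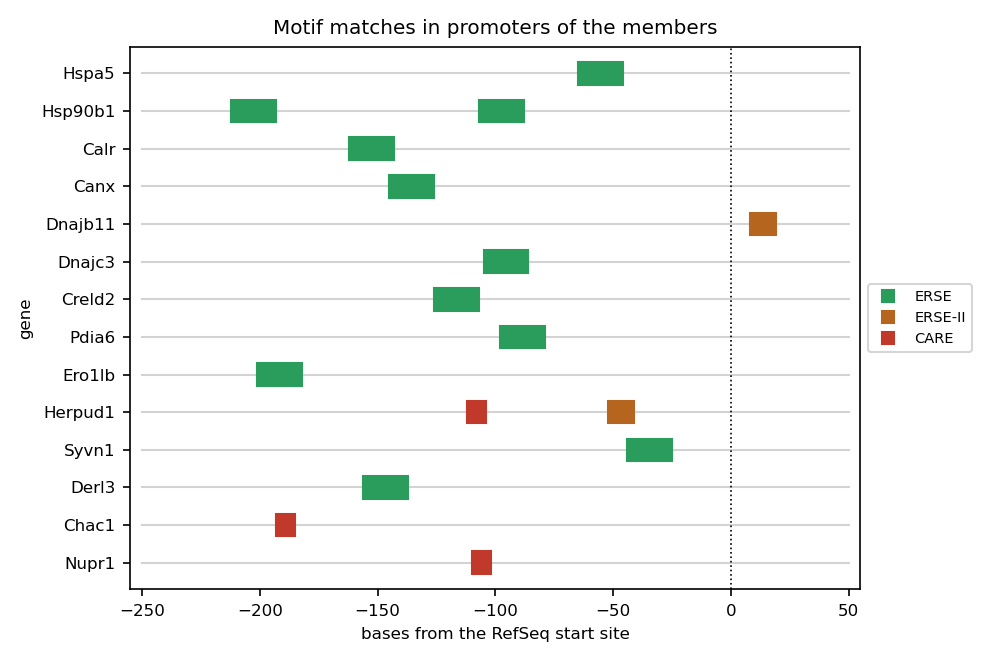
Positions of motif matches in the promoters of the 14 members that held one, as bases from the RefSeq start site on the strand of the gene (grey line, 250 bases before to 50 after). ERSE matches lay in 10 members, ERSE-II in 2 and CARE in 3, and the single match after the start site was the ERSE-II of Dnajb11.

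Levels of the members spanned a wide range in both groups, with folding genes at the top and Ero1lb and Derl3 at the bottom. Levels were compared between genes only after scaling to the library total and to the length of the merged exons, as CPM per kilobase. On that scale Calr, the calcium-binding lectin chaperone calreticulin, was highest at 559 ± 19.1 in CAP cultures and 489 ± 52.0 in air cultures (SD, n = 3 each). Pdia3 followed at 370.3 ± 7.74 in CAP cultures and 340.1 ± 41.8 in air cultures, then Hsp90b1 at 326 ± 25.3 in CAP cultures and 273 ± 30.9 in air cultures. Hspa5 stood at 318 ± 25.4 in CAP cultures and 271 ± 27.1 in air cultures, and its order against Hsp90b1 was not separable, since they differed by less than the SD of either. Toward the other end, Chac1 stood at 6.29 ± 3.59 CPM per kilobase in CAP cultures and 1.86 ± 0.818 in air cultures, Ero1lb at 2.28 ± 0.296 in CAP cultures and 2.33 ± 0.261 in air cultures, and Derl3 at 0.155 ± 0.148 in CAP cultures and 0.464 ± 0.0994 in air cultures. In the air cultures Chac1 and Ero1lb also overlapped within their SDs, and in the CAP cultures Chac1 overlapped within its SD with Eif2ak3 at 6.53 ± 0.775 and Ern1 at 8.71 ± 1.61.

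To ask whether inhaled CAP moved these genes, CAP was compared with air by edgeR's quasi-likelihood test, with Benjamini-Hochberg adjustment over the 14792 genes and a threshold of 0.05. It called 0 of all genes (0%) and 0 of the 33 members, and the lowest adjusted p of a member was 0.468. DESeq2 called 24 of 13924 genes (0.172%) and limma-voom 0, and neither called a member. At an unadjusted p under 0.05, 3 members were higher in CAP (Chac1, Hyou1 and Ddit3) and 1 was lower (Derl3), beside 5.89% of all tested genes higher and 4.68% lower under the same rule. Every CAP library exceeded every air library in 6 members (Hyou1, Pdia6, Sec61a1, Ddit3, Ppp1r15a and Chac1), beside 8.44% of all tested genes. The reverse held in 2 members (Edem1 and Derl3), beside 8.46% of all tested genes.

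The log2 fold change, CAP minus air, was positive in 21 members and negative in 12, beside 48.8% positive among all tested genes. Its median over the members was 0.11, against -0.0084 over all tested genes, and 0.046 without CAP replicate 2. The members' median deviation from the air mean was 0.14, 0.13 and 0.041 on the log2 scale in CAP replicates 1 to 3 and 0.095, 0.0072 and -0.078 in air replicates 1 to 3. CAP 3 thus lay below air 1. Without air replicate 3 the median was 0.012, against -0.0038 over all tested genes, and 1 member was higher at an unadjusted p under 0.05 and 0 were lower, beside 2.19% of all tested genes higher and 1.48% lower.

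The differences were small for most members. In 31 of the 33 the estimated fold was within 1.5 either way, and in 24 within 1.2. The 95% confidence interval of single genes, which is not adjusted for the number of genes, lay within 2-fold either way in 30 members. Chac1, Derl3 and Nupr1 were the exceptions, so that these data leave room for larger differences in these 3 genes.

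**Figure D2:**
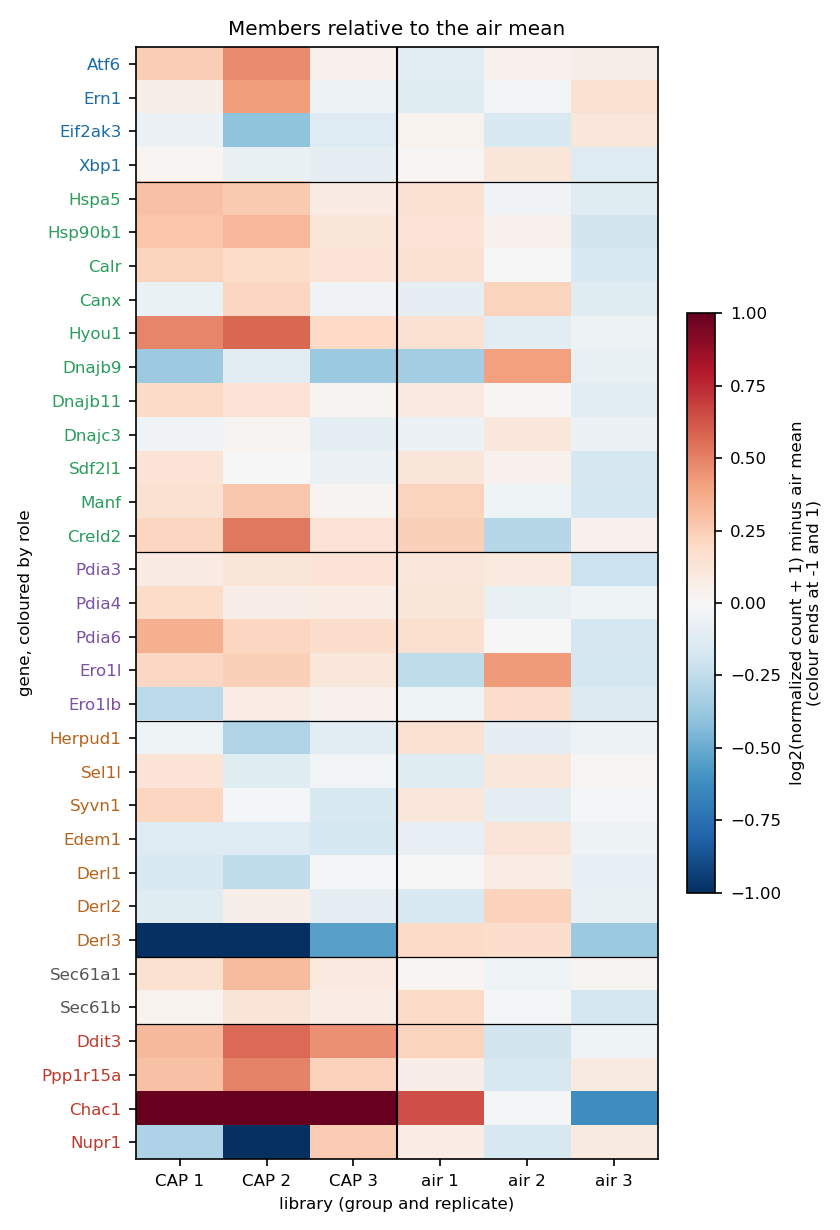
Log2(normalized count + 1) of the 33 members in each library (columns, CAP left of air) minus the mean of the 3 air libraries, with genes (rows) grouped and coloured by role. Most members lay close to 0, Chac1 and Derl3 stood out in opposite directions in the CAP libraries, and CAP replicate 2 held the highest value in 10 members.

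**Figure D3:**
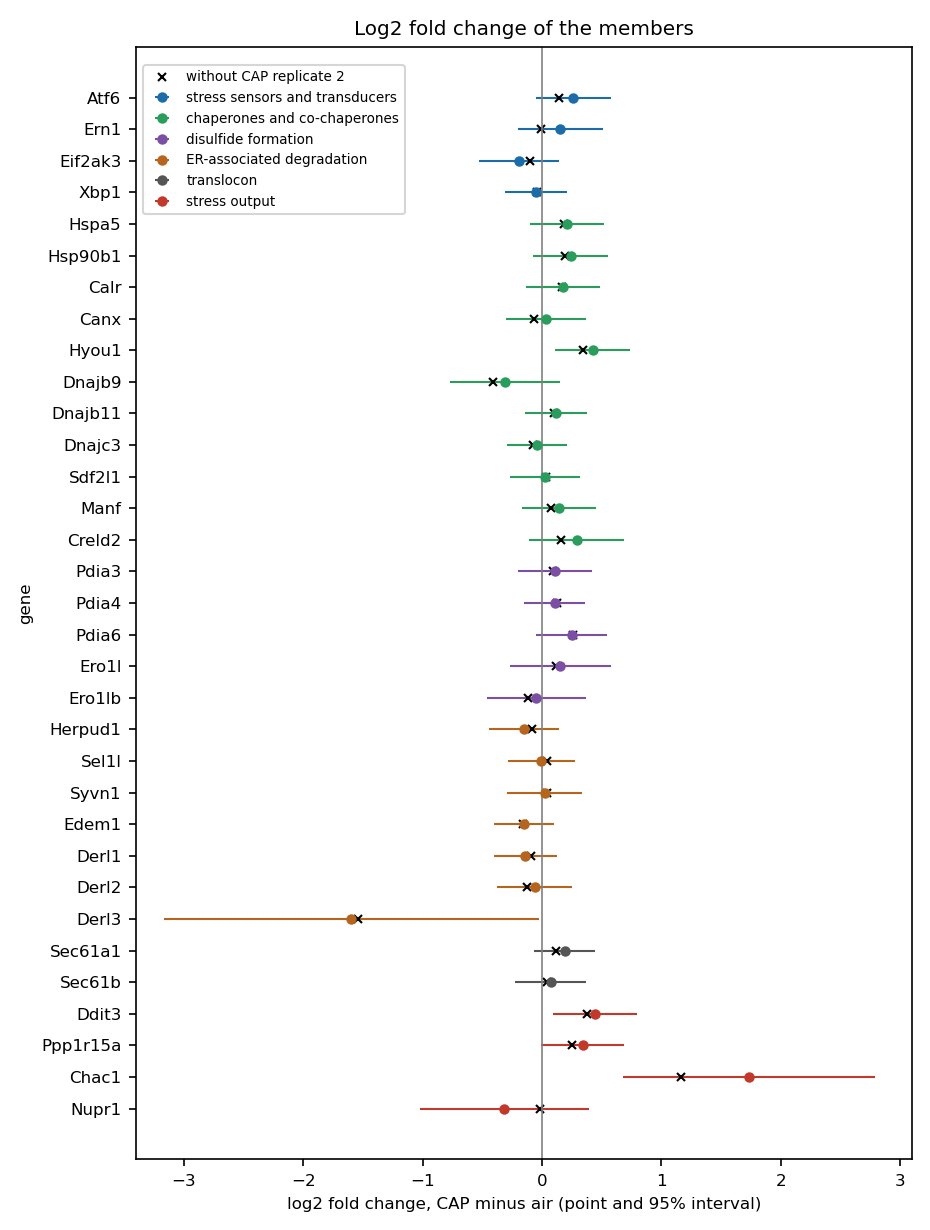
Log2 fold change of each member, CAP minus air, from edgeR (coloured points) with its 95% confidence interval (lines), and the value without CAP replicate 2 (crosses). The interval lay above 0 in Chac1, Hyou1 and Ddit3 and below 0 in Derl3, and no member passed the threshold after adjustment over all genes.

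The stress sensors and transducers showed no common direction, with 2 of 4 positive and a median log2 fold change of 0.051, or -0.024 without CAP replicate 2. Atf6, a membrane-bound transcription factor that is released by cleavage under stress, had 2858, 3342 and 2476 normalized counts in CAP replicates 1 to 3, against 2238, 2485 and 2505 in air replicates 1 to 3. Its log2 fold change was 0.26 (SE 0.14), with an edgeR adjusted p of 0.490, and 0.14 without CAP replicate 2, which was its highest library. Ern1, which encodes the kinase and RNase IRE1α that splices the Xbp1 mRNA, had 1920.3, 2469 and 1777 normalized counts in CAP replicates 1 to 3, against 1692, 1808 and 2048 in air replicates 1 to 3. CAP replicate 2 was again highest and the groups overlapped, and its log2 fold change of 0.15 (SE 0.16) was -0.0054 without that library.

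Eif2ak3, which encodes the kinase PERK that phosphorylates the translation factor eIF2α, had 1248, 979.6 and 1188 normalized counts in CAP replicates 1 to 3, against 1329, 1169.5 and 1404 in air replicates 1 to 3. The groups overlapped and CAP replicate 2 was the lowest library (log2 fold change -0.19, SE 0.15, and -0.10 without it). Xbp1 (ENSMUSG00000020484, chr11:5520659-5525893), the transcription factor downstream of IRE1α, had 4516, 4216 and 4179.9 normalized counts in CAP replicates 1 to 3, against 4474, 4832 and 4073 in air replicates 1 to 3. Both the highest and the lowest Xbp1 value were in air libraries, and the log2 fold change was -0.051 (SE 0.11, 95% interval -0.31 to 0.21). The table counts reads per gene, so that the spliced and unspliced forms of Xbp1 were not separated.

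The chaperones and co-chaperones had a positive log2 fold change in 9 of 11 genes, with a median of 0.14, and 0.10 without CAP replicate 2. Hspa5 (ENSMUSG00000026864, chr2:34771970-34777547), which encodes the abundant Hsp70 chaperone BiP and is the usual reporter of ER stress, had 40885, 40176 and 35439 normalized counts in CAP replicates 1 to 3, against 37169.6, 32706 and 30727 in air replicates 1 to 3. The CAP 3 library lay below air 1, and the difference of 1.16-fold (log2 fold change 0.21, SE 0.14) had an edgeR adjusted p of 0.555. Hsp90b1, the ER form of Hsp90 known as GRP94, had 38752, 40179 and 34878 normalized counts in CAP replicates 1 to 3, against 35267, 32971 and 28178 in air replicates 1 to 3, again with CAP 3 below air 1 (log2 fold change 0.24, SE 0.14). Calr had 47975, 46599 and 44994 normalized counts in CAP replicates 1 to 3, against 45632, 40889 and 36986 in air replicates 1 to 3. In each of these 3 genes air 3 was the lowest library and CAP 3 the lowest of the CAP libraries.

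Hyou1 (ENSMUSG00000032115, chr9:44379490-44392369) was the chaperone with the lowest p. It encodes GRP170, which exchanges nucleotides on BiP. It had 6341, 6739 and 5173 normalized counts in CAP replicates 1 to 3, against 5019, 4208 and 4364 in air replicates 1 to 3, and the groups did not overlap. The mean was 6084 ± 814 in CAP cultures and 4530.4 ± 430.3 in air cultures (SD, n = 3 each), a log2 fold change of 0.43 (SE 0.14). Its unadjusted p was 0.0136 and its adjusted p 0.468 by edgeR's quasi-likelihood test, 0.246 by DESeq2, and the log2 fold change was 0.34 without CAP replicate 2.

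Among the smaller stress-induced genes of folding, no member separated the groups. Sdf2l1, a partner of the co-chaperone ERdj3, had 2132, 1948 and 1864 normalized counts in CAP replicates 1 to 3, against 2114, 1996 and 1731 in air replicates 1 to 3. Manf, a secreted protein held in the ER until stress, had 4217, 4575 and 3865 normalized counts in CAP replicates 1 to 3, against 4419.5, 3678 and 3366 in air replicates 1 to 3. In both genes air 1 lay within the CAP range, and the log2 fold changes were 0.026 (SE 0.13) for Sdf2l1 and 0.14 (SE 0.14) for Manf. Creld2, a stress-induced ER protein with EGF-like domains, had 1296, 1612 and 1237 normalized counts in CAP replicates 1 to 3, against 1322, 917 and 1152 in air replicates 1 to 3. CAP replicate 2 was its highest library, and the log2 fold change of 0.29 (SE 0.18) was 0.16 without it and 0.16 without air replicate 2.

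Dnajb9 had the lowest log2 fold change of the chaperones. This gene, which encodes the co-chaperone ERdj4 that restrains IRE1α, had 938, 1115 and 930.2 normalized counts in CAP replicates 1 to 3, against 952, 1604 and 1142 in air replicates 1 to 3. Air 2 alone was far above the rest, air 1 lay within the CAP range, and the log2 fold change of -0.31 (SE 0.20) was -0.075 without air replicate 2. The lectin chaperone Canx and the co-chaperones Dnajb11 and Dnajc3 had log2 fold changes of 0.033 (SE 0.15), 0.12 (SE 0.11) and -0.038 (SE 0.11), with overlapping groups in each.

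The genes of disulfide formation had a positive log2 fold change in 4 of 5, with a median of 0.11, and 0.12 without CAP replicate 2. Pdia6 (ENSMUSG00000020571, chr12:17266545-17284770), a protein disulfide isomerase that also acts on the IRE1α sensor, had 20716, 18786 and 18292 normalized counts in CAP replicates 1 to 3, against 18018, 16241 and 14421 in air replicates 1 to 3. The groups did not overlap, by a narrow gap between CAP 3 and air 1, and the log2 fold change was 0.25 (SE 0.13) with an edgeR adjusted p of 0.488. Pdia4, a further ER isomerase, had 8068, 7435 and 7479.6 normalized counts in CAP replicates 1 to 3, against 7706, 6747 and 6879 in air replicates 1 to 3, with CAP 2 and CAP 3 below air 1 (log2 fold change 0.11, SE 0.11). Pdia3, the isomerase that works with calnexin and calreticulin, and the ER oxidases Ero1l and Ero1lb had overlapping groups and log2 fold changes of 0.11, 0.15 and -0.047 with SEs of 0.14, 0.19 and 0.18. Ero1l had 2024, 2063 and 1895 normalized counts in CAP replicates 1 to 3, against 1472, 2359 and 1551 in air replicates 1 to 3, so that its overlap came from air 2 alone, and without that library its log2 fold change was 0.40 (SE 0.13).

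The genes of ER-associated degradation had a negative log2 fold change in 6 of 7, with a median of -0.14, and -0.090 without CAP replicate 2, when 5 of 7 were negative. Herpud1, a stress-induced membrane protein of the HRD1 ligase complex, had 2130.5, 1783 and 2046 normalized counts in CAP replicates 1 to 3, against 2442, 2051 and 2126 in air replicates 1 to 3. CAP 1 lay among the air libraries and CAP 2 was lowest, and the log2 fold change was -0.15 (SE 0.13). Edem1, which takes up misfolded glycoproteins for degradation, had 5449.9, 5464 and 5292 normalized counts in CAP replicates 1 to 3, against 5639.9, 6549.9 and 5772 in air replicates 1 to 3. These groups did not overlap, with a log2 fold change of -0.15 (SE 0.11) and an edgeR adjusted p of 0.598. Sel1l and Syvn1, the adaptor and the ubiquitin ligase of the HRD1 complex, had log2 fold changes close to 0, at -0.0043 (SE 0.12) and 0.023 (SE 0.14), and the derlins Derl1 and Derl2 had log2 fold changes of -0.14 (SE 0.11) and -0.059 (SE 0.14).

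Derl3 (ENSMUSG00000009092, chr10:75893413-75895941), the derlin known for its high level in secretory cells, was the member with the largest negative value and the fewest counts. It had 0.951, 7.97 and 18.0 normalized counts in CAP replicates 1 to 3, against 30.5, 30.2 and 20.3 in air replicates 1 to 3. Its 3 CAP libraries all lay below the 3 air libraries, but CAP 3 and air 3 were close, and no library held more than 30.5 normalized counts. The log2 fold change was -1.60 (SE 0.69, 95% interval -3.17 to -0.028), with an unadjusted p of 0.0468 and an adjusted p of 0.468 by edgeR and 0.520 by DESeq2. It was -1.05 without CAP replicate 1, -2.59 without CAP replicate 3, and -1.54 without CAP replicate 2, where the unadjusted p was 0.0735. Of 6 plasma cell markers with a row, Mzb1 was at 0 in all libraries, and Jchain was at 0 in the 3 CAP libraries and at 1.02, 2.01 and 6.10 normalized counts in air replicates 1 to 3. The sum of the 6, at 4713 to 7421 normalized counts in CAP cultures, against 6826 to 8571 in air cultures, was almost all Sdc1, which is not limited to plasma cells. Without Sdc1 the other 5 summed to 64.9 to 113.6 in CAP cultures, against 69.1 to 157.1 in air cultures, and their part in the Derl3 values was not tested.

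The translocon genes were both slightly positive. Sec61a1, the channel subunit, did not overlap between the groups (log2 fold change 0.19, SE 0.11, edgeR adjusted p 0.525), whereas Sec61b, a small subunit beside the channel, did (log2 fold change 0.073, SE 0.13).

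The genes of stress output held the members with the highest log2 fold changes, Chac1 and Ddit3, with 3 of 4 positive and a median log2 fold change of 0.39, or 0.32 without CAP replicate 2. Chac1 (ENSMUSG00000027313, chr2:119351229-119354381), which encodes a glutathione-degrading enzyme induced by ATF4 and CHOP, had 183, 489 and 219.6 normalized counts in CAP replicates 1 to 3, against 131, 82.6 and 53.9 in air replicates 1 to 3. Every CAP library exceeded every air library, CAP 2 was far above the other CAP libraries, and the smallest gap was that between CAP 1 and air 1. The mean was 297 ± 167 in CAP cultures and 89.2 ± 39.0 in air cultures (SD, n = 3 each), a fold of 3.33 and a log2 fold change of 1.73 (SE 0.46, 95% interval 0.68 to 2.79). The unadjusted p was 0.00504 and the adjusted p 0.468 by edgeR, and the adjusted p by DESeq2 was 0.0657. Without CAP replicate 2 the log2 fold change was 1.16, with an adjusted p of 0.538 by edgeR and 0.298 by DESeq2.

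Ddit3 (ENSMUSG00000025408, chr10:127290774-127296288), which encodes the transcription factor CHOP, a mediator of death under lasting ER stress, had 1079, 1276 and 1182 normalized counts in CAP replicates 1 to 3, against 1007, 758 and 836 in air replicates 1 to 3. The groups did not overlap, and the log2 fold change was 0.44 (SE 0.15), with an unadjusted edgeR p of 0.0192 and an adjusted p of 0.468. Without CAP replicate 2 it was 0.38. A second Ensembl entry named Ddit3, whose 105 bases of exon lie within those of the main entry, held 0 counts in every library.

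Ppp1r15a (ENSMUSG00000040435, chr7:45522916-45526268), which encodes GADD34, the subunit that reverses eIF2α phosphorylation, had 843, 969 and 804 normalized counts in CAP replicates 1 to 3, against 718, 616 and 732 in air replicates 1 to 3. The groups did not overlap (log2 fold change 0.34, SE 0.15, edgeR unadjusted p 0.0523 and adjusted p 0.468). Nupr1, a small stress-induced nuclear protein, had 1548, 807 and 2285 normalized counts in CAP replicates 1 to 3, against 2022, 1714 and 2042 in air replicates 1 to 3. Its CAP libraries spanned the whole range of the 6, with CAP 2 lowest and CAP 3 highest, and the log2 fold change of -0.32 (SE 0.31) was -0.013 without CAP replicate 2 and -0.71 (SE 0.26) without CAP replicate 3.

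**Figure D4:**
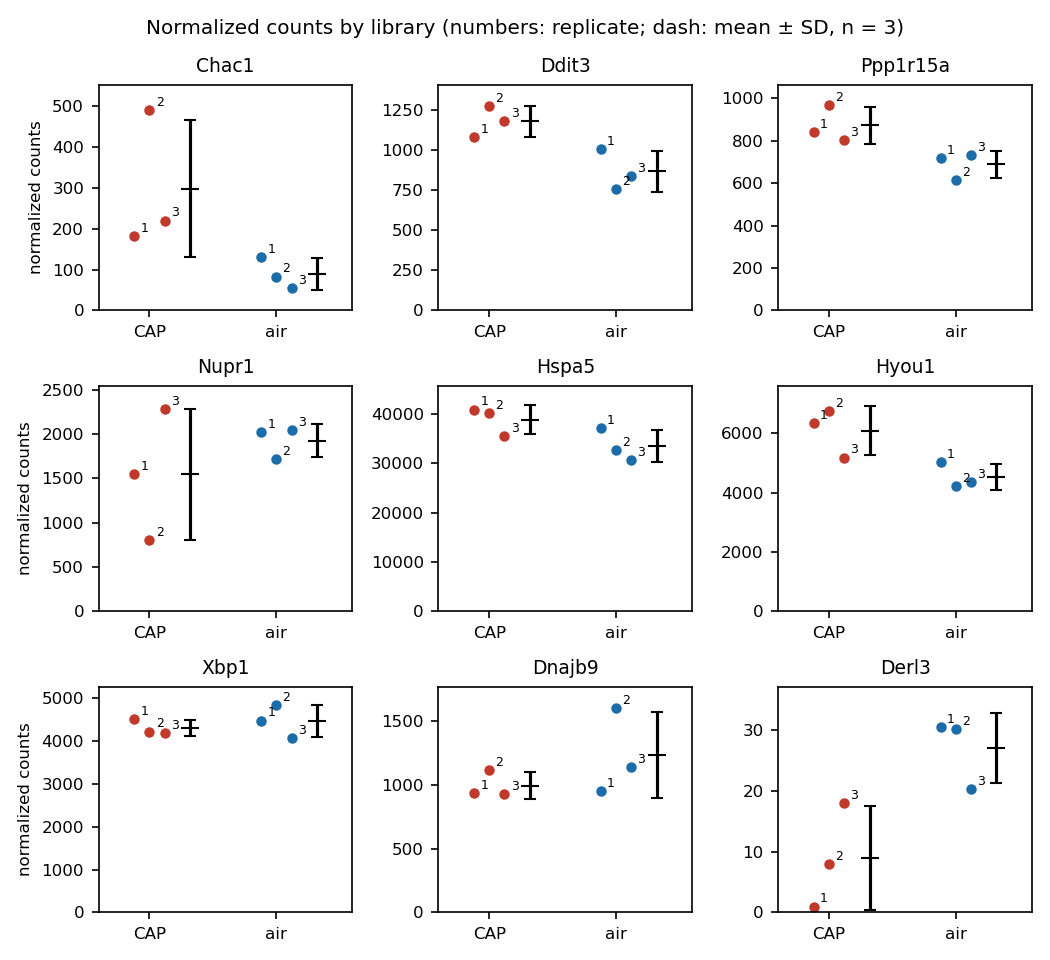
Normalized counts of 9 members in each library (numbered points; CAP left, air right), with the mean ± SD of 3 libraries beside them. Every CAP point lies above every air point in Chac1, Ddit3, Ppp1r15a and Hyou1 and below them in Derl3, while Hspa5, Xbp1, Dnajb9 and Nupr1 overlapped.

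CAP replicate 2, which was highest in Chac1, Ddit3, Ppp1r15a, Hyou1, Atf6, Ern1 and Creld2, also differed from the other libraries in cell markers. The 8 proliferation markers summed to 20946, 34696 and 15411 normalized counts in CAP replicates 1 to 3, against 15441, 16604 and 15716 in air replicates 1 to 3, and 8 of 8 had a positive log2 fold change. Their median was 0.67, and 0.21 without CAP replicate 2, when 8 of 8 were still positive. Of these genes, 1 (Cdk1) had every CAP library above every air library (unadjusted edgeR p 0.0179, adjusted p 0.468). The 8 stromal markers summed to 97432, 53380 and 132256 in CAP replicates 1 to 3, against 130191, 140727 and 205409 in air replicates 1 to 3, with 0 of 8 positive. Their median log2 fold change was -0.34, and -0.040 without CAP replicate 2, when 3 of 8 were positive. Col1a2 was the most abundant of them. The other 7 summed to 17035 to 70638 in CAP cultures, against 74015 to 153292 in air cultures, so that every CAP sum lay below every air sum. This rested on Cxcl12, and without it the sums overlapped, with CAP 3 above air 1 and air 2. Of the 8 genes, 1 (Cxcl12) had every CAP library below every air library (unadjusted edgeR p 0.0172, adjusted p 0.468). The 6 osteoblast markers summed to 8751, 2360 and 12061 in CAP replicates 1 to 3, against 9304, 9841 and 12997 in air replicates 1 to 3. Their median log2 fold change was -0.35 with 1 of 6 positive, and -0.070 without CAP replicate 2, when 3 of 6 were positive. Col1a1 was the most abundant of these and is also in the stromal list. The other 5 osteoblast markers summed to 873 to 2742 in CAP cultures, against 2436 to 4169 in air cultures. No stromal, osteoblast or proliferation marker was at 0 in all libraries. CAP 2 was thus the highest library for proliferation markers and the lowest for stromal and osteoblast markers, and their part in the values of the members was not tested.

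The values were also set out by whether the promoter held an ERSE. The 10 members with a match had a median log2 fold change of 0.10, with 7 positive, and the 18 members with a promoter but no match had a median of 0.049, with 10 positive. The 5 members with no promoter entry, which could not be placed in either set, had a median of 0.19, with 4 positive. Members are not replicates of a condition, so that no test was made. Of the 3 members with a CARE, Chac1 was at 1.73, Herpud1 at -0.15 and Nupr1 at -0.32.

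A further 81 genes of the ER and of its stress pathways, in 5 lists, were measured and tested. No gene of these lists was called by edgeR or DESeq2, and 51 had a positive log2 fold change, with a median of 0.059, and 0.042 without CAP replicate 2. At an unadjusted p under 0.05 there were 6 higher and 1 lower, beside the shares of all tested genes given for the members. The integrated stress response list, which holds the ATF4 targets, had 4 of these among 17 genes and a median of 0.26, or 0.15 without CAP replicate 2, when the 2 genes under 0.05 were Asns and Eif2ak2, one of the other eIF2α kinases, beside 4.11% of all tested genes higher under that rule. The other genes of folding had 1 of 17 higher (median 0.029), those of ER-associated degradation 1 of 16 lower (median 0.080), those of stress signalling 1 of 10 higher (median 0.028) and those of the translocon, signal peptidase and glycosylation 0 of 21 (median 0.071). Unlike the members of that role, the further genes of ER-associated degradation were positive in 10 of 16. Every CAP library exceeded every air library in 3 of these 16 and the reverse held in 1, beside 8.44% and 8.46% of all tested genes.

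Atf4, the transcription factor that the eIF2α kinases raise, had 6638, 8523 and 6342 normalized counts in CAP replicates 1 to 3, against 6267, 4944 and 5096 in air replicates 1 to 3 (log2 fold change 0.40, SE 0.15, edgeR adjusted p 0.468). Asns, the ATF4 target asparagine synthetase, had 2534, 3951 and 2516 normalized counts in CAP replicates 1 to 3, against 2215, 1628 and 1480.3 in air replicates 1 to 3 (log2 fold change 0.76, SE 0.22, edgeR adjusted p 0.468). Neither gene overlapped between the groups, CAP 2 was highest in both, and without that library the log2 fold changes were 0.25 for Atf4 and 0.50 for Asns. Atf5 and Trib3, a transcription factor and a pseudokinase in the same response, had log2 fold changes of 0.37 (SE 0.16) and 0.60 (SE 0.26), and in both air 1 lay within the range of the CAP libraries.

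In the other lists the genes of lowest p were Wfs1, an ER membrane protein known from Wolfram syndrome, the disulfide isomerase Pdia5, and Selenok, a selenoprotein of the ER membrane. Wfs1 had 2248, 2289 and 2034 normalized counts in CAP replicates 1 to 3, against 1721, 1336 and 1594 in air replicates 1 to 3, a log2 fold change of 0.50 (SE 0.14), and 0.46 without CAP replicate 2. Pdia5 had 749, 969 and 883 normalized counts in CAP replicates 1 to 3, against 723, 570.2 and 599 in air replicates 1 to 3 (log2 fold change 0.46, SE 0.17). Selenok was lower, with 1982, 1854 and 2024 normalized counts in CAP replicates 1 to 3, against 2487, 2629 and 2294 in air replicates 1 to 3 (log2 fold change -0.34, SE 0.12). The groups did not overlap in any of these 3 genes, and their edgeR adjusted p was 0.468 in each.

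Some reads of the members could belong to other genes, since the sources used here do not give the strand setting of the counting. The largest exon overlaps with a gene on the opposite strand were 10.3% of the exon bases of Hsp90b1 (with 1810014B01Rik), 8.16% of Sec61a1 (with Gm44170) and 8.05% of Eif2ak3 (with Gm43292), and 3.97% of Ddit3 overlapped Mars. Chac1, Hyou1 and Derl3 had no exon overlap with another annotated gene.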

How the data were processed

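Stranded poly-A mRNA libraries were made from bone marrow EPC cultures of 3 CAP-exposed and 3 air-exposed mice. The authors aligned the reads to mm10 (STAR 2.6) and counted them per gene (HTSeq 0.10.0), as the labels and the study's methods state, and deposited raw counts with a column for each mouse. The sources used here do not state the annotation release, whether strand was used, or how multi-mapped reads were handled, and overlapping or near-identical genes are uncertain for that reason. Libraries held 28713206 to 30446171 counts, and no pair was identical. The biological coefficient of variation common to all tested genes was 26.3%, which does not give the precision of single members. Among the members, the SE of the log2 fold change ran from 0.11 (Dnajc3) to 0.69 (Derl3). P-values measure the spread between these mice.

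Names, exons and positions were taken from GENCODE vM21 (GRCm38), in which 99.88% of the gene IDs were found. Where a symbol had more than 1 ID, that with the longest exons was used. After RLE normalization and removal of genes with fewer than 10 counts in total, the quasi-likelihood test of edgeR 4.0.16 (R 4.3.3) compared CAP with air, with Benjamini-Hochberg adjustment over 14792 genes. The standard error was obtained as the size of the log2 fold change over the root of F. Log2 values per library had a pseudocount of 1. Alternatives were TMM, no count filter, filterByExpr, DESeq2 1.42.0, limma-voom (limma 3.58.1), a block for the replicate number, and omission of each library. The older form of the quasi-likelihood test was added after the data were seen. An exact permutation test of 3 against 3 libraries cannot go below p = 0.1, and none was made per gene.

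The members and lists were chosen with earlier results of these data known. Per-library values are given for the usual reporters of ER stress, the 3 sensors and the 6 members of lowest p, and up to 4 genes of lowest p are named from each further list. Outside this rule, per-library values are also given for Edem1, Ero1l and Nupr1, and Eif2ak2 is named. Promoters came from RefSeq (GRCm38.p6). Proteins, miRNA libraries and qRT-PCR were not analysed here.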

Additional observations from a re-analysis of the deposited data

How the results depend on the processing

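No member was called under any alternative run here. The study's own DESeq2 analysis did list Chac1, and Asns of the further lists, among its upregulated genes. It also listed Tek, of the endothelial markers, among its downregulated genes, whereas DESeq2 here gave Tek an adjusted p of 0.0935. The cause of these differences was not tested. Over all genes edgeR, limma-voom and every edgeR fit with a library left out called 0, whereas DESeq2 called 24 and DESeq2 without CAP replicate 2 called 51; the cause was not tested. The number of members with an unadjusted p under 0.05 was 4, and 1 to 6 with a library left out (1 without air replicate 3, beside 3.67% of all tested genes, and 6 without CAP replicate 3, beside 18.5%; 10.6% with all libraries). The median log2 fold change of the members was 0.11, and 0.012 to 0.12 with a library left out (0.012 without air replicate 3, 0.046 without CAP replicate 2). The members with no overlap between groups numbered 8, and 9 to 17 with a library left out (15 without CAP replicate 3, beside 36.2% of all tested genes, and 17 without air replicate 1, beside 32.3%; 16.9% with all libraries), where fewer libraries overlap less by construction. Without air replicate 1 the members comprised 14 above, beside 16.4%, and 3 below, beside 15.8%. Of the 33 members, 23 kept the direction of their log2 fold change under every alternative. The 20 reversed values all lay near 0. With a library left out in turn, log2 fold changes ran -0.051 to 0.089 for Sdf2l1, -0.12 to 0.055 for Ero1lb, -0.084 to 0.10 for Syvn1, -0.0054 to 0.25 for Ern1, -0.067 to 0.15 for Canx, -0.077 to 0.056 for Sel1l, -0.11 to 0.010 for Xbp1, -0.074 to 0.020 for Dnajc3, -0.13 to 0.063 for Derl2 and -0.0099 to 0.17 for Sec61b. By DESeq2 without CAP replicate 2 they were -0.0055 for Ern1, -0.067 for Canx and 0.046 for Sel1l. The cause of these reversals was not tested.

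With the replicate number as a block, 0 genes were called, 3 members had an unadjusted p under 0.05 and the median was 0.11. No source used here describes same-numbered libraries as pairs, and the count columns number some of these libraries otherwise. The deviations of same-numbered libraries correlated at -0.021, 0.087 and 0.17, and not every library correlated best with its own number. With 3 libraries per group such correlations cannot decide whether libraries were paired. Derl3 was the only member with fewer than 100 normalized counts on average.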
